A study of Homo sapiens with 36 samples.

Results

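ID1, ID2, ID3 and ID4, the 4 members of the inhibitor of DNA binding family of helix-loop-helix proteins, were followed by gene symbol through 9 tables of 23146 loci each, and all 4 were found in every table. The samples were MRC-5 fibroblasts, a long-established human line from fetal lung, pushed toward a neuronal fate by NEUROG2, a proneural factor that belongs to the basic helix-loop-helix (bHLH) class. NFD cells were transduced with a lentivirus for HA-tagged NEUROG2 and received 10 µM forskolin, which activates adenylyl cyclase and raises cyclic AMP, and 1 µM dorsomorphin, which blocks type I receptors for bone morphogenetic proteins (BMPs) and also AMPK. N cells received the NEUROG2 virus without the molecules, FD cells a GFP virus with both molecules, and GFP cells the GFP virus alone. RNA was taken 0.5, 1 and 2 days post treatment (DPT), a clock that starts when FD and NFD cells got the molecules and that is used for all cells, with 3 libraries for each of the 12 groups. Virus was added 24 hours after plating, and the molecules 48 hours after infection.

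The files hold 1 FPKM value (fragments mapped to a transcript, scaled to its length and to the size of the library) for each group of 3 libraries, so no spread between libraries can be shown, and sequencing depth is unknown. A gene is called higher or lower where the q-value of the authors' own test against GFP cells of the same time is at or under 0.05, and the p-values behind it measure only the spread between libraries that the labels do not describe as separate cultures. GFP cells are placed in a medium with serum by one label and in neuron induction medium, that of the other 3 conditions, by another, so an effect of the medium cannot be told apart from that of the virus or the molecules in a comparison with GFP. Values given 3 at a time run from 0.5 over 1 to 2 DPT. NEUROG2 had 2616, 2565 and 2641 FPKM in N cells, against 36.7, 18.5 and 15.3 FPKM in GFP cells, while in NFD cells it is listed at 0 under a mark for too many fragments and its level cannot be read. Fibroblast markers were abundant in GFP cells, with 10 genes summing to between 8996 and 11122 FPKM. The 4 epithelial markers summed to 6.60, 5.06 and 4.14 FPKM in NFD cells and 11.7, 9.15 and 10.4 FPKM in N cells, against 34.6, 23.4 and 19.6 FPKM in GFP cells, where nearly all was KRT18 and KRT5 was at or near 0. The 4 blood markers summed to 20.8, 20.2 and 11.7 FPKM in NFD cells and 16.8, 14.6 and 7.73 FPKM in N cells, against 59.7, 62.1 and 29.5 FPKM in GFP cells, nearly all of it CD68, with CD3E at 0. The 4 endothelial markers summed to 3.91, 7.71 and 5.06 FPKM in NFD cells and 2.21, 1.94 and 1.51 FPKM in N cells, against 4.04, 10.1 and 19.1 FPKM in GFP cells, nearly all of it TEK there. KRT18, CD68 and TEK were called lower in NFD and N cells at each time. In NFD cells PECAM1, CDH5 and VWF, at 0.564 to 4.76 FPKM, were called higher at 1 and 2 DPT. VWF was also called higher in NFD cells at 0.5 DPT and in N cells at 0.5 and 1 DPT. EPCAM, an epithelial marker, was called higher in NFD cells at 0.5 and 2 DPT. The part of these markers in the ID values was not tested.

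ID proteins have the helix-loop-helix that lets such factors pair, but lack the basic stretch that binds DNA. They capture the widely expressed E proteins, the partners that NEUROG2 and other proneural factors need to bind E-boxes in DNA, and so hold back differentiation. Their genes are classic early targets of BMP signalling, in which ligand-bound receptors phosphorylate SMAD1, SMAD5 and SMAD9, these join SMAD4, and inhibitory SMADs such as SMAD6 and SMAD7 close a feedback loop.

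In the authors' tables, on GRCh37, ID1 lies at chr20:30193085-30194317, ID2 at chr2:8822112-8824583, ID3 at chr1:23884408-23886322 and ID4 at chr6:19837616-19840915, and no other gene of the tables shares any of these loci. The 4 genes did not follow one pattern under the molecules, so the 250 bases before each RefSeq start are shown, read 5′ to 3′ on the gene's strand from the RefSeq promoter table on GRCh38.p14. These windows are chr20:31605039-31605288 on the plus strand for ID1, chr2:8681806-8682055 on the plus strand for ID2, chr1:23559502-23559751 on the minus strand for ID3 and chr6:19837120-19837369 on the plus strand for ID4. Capitals mark matches to the cyclic AMP half-site TGACG or to the E-box CANNTG.
ID1: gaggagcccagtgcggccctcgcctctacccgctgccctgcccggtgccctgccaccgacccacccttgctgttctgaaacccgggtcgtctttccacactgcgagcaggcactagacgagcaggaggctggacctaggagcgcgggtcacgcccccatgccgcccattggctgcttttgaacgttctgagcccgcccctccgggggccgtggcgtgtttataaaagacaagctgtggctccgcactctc
ID2: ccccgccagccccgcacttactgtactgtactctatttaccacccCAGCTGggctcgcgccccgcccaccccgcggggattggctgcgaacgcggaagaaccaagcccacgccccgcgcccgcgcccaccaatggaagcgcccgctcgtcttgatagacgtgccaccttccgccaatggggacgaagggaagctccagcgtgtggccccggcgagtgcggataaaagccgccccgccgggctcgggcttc
ID3: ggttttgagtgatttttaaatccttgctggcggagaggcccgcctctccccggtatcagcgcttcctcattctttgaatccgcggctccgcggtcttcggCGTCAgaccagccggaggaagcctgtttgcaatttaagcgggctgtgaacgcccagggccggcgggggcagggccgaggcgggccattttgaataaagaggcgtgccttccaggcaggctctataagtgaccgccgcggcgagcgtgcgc
ID4: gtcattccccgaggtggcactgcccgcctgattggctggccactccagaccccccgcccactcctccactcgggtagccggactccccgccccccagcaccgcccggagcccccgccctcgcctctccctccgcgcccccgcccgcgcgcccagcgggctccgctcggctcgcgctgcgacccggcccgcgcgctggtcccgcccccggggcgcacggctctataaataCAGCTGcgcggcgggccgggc
These motifs were searched on both strands, and TGACG lies within the longer TGACGTCA. The BMP SMAD motifs GGCGCC and GCCGNCGC and the full cyclic AMP response element TGACGTCA were not found in any of the 4 windows; they occur in 16.4%, 12.9% and 1.65% of 35116 RefSeq promoters over the same length. TGACG, found in 21.2% of promoters, matched only in ID3, as CGTCA on the strand shown, 150 to 146 bases before the start. CANNTG, found in 61.8%, matched as CAGCTG in ID2, 205 to 200 bases before the start, and in ID4, 21 to 16 bases before it. ID1 had no match to any of the motifs searched. A match is only a run of letters, and sites farther away, where enhancers of these genes can lie, were not read.

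All 4 ID genes rose in N cells at every time. ID1 had 516.9, 341.5 and 411.8 FPKM in N cells, against 8.62, 4.04 and 9.39 FPKM in GFP cells. These N levels were 59.9, 84.6 and 43.8 times those of GFP cells, and the authors' deposited log2 fold changes were 5.91, 6.40 and 5.45 (q = 0.000151 at each time, the smallest q in the tables). ID1 was thereby among the abundant transcripts of N cells: 237, 299 and 268 of 23120 named genes, ID1 included, were listed at its level or above.

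ID3 was the next in abundance, with 160.4, 114.3 and 112.1 FPKM in N cells, against 5.56, 3.39 and 8.88 FPKM in GFP cells. ID2, the most abundant ID transcript of GFP cells, had 115.9, 88.3 and 102.5 FPKM in N cells, against 17.7, 12.3 and 13.1 FPKM in GFP cells. The deposited log2 fold changes by the authors' test were 4.85, 5.08 and 3.66 for ID3 and 2.71, 2.85 and 2.97 for ID2, each with q = 0.000151. ID4, the scarcest of the family in these fibroblasts, had 4.16, 3.47 and 4.66 FPKM in N cells, against 0.306, 0.310 and 0.503 FPKM in GFP cells, and the authors' deposited log2 fold changes were 3.77, 3.49 and 3.21 (q = 0.000151). At these low levels the size depends on the scale: on that of log2(FPKM + 1) they were 1.98, 1.77 and 1.91. Across all genes tested by the authors in N cells, 26.2%, 25.4% and 27.1% were called higher (50.5%, 54.7% and 57.1% in either direction), beside 4 of 4 ID genes higher. The median log2 fold change of the 4 was 4.31, 4.28 and 3.43, against 0.03, -0.03 and -0.01 over all tested genes.

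**Figure D1:**
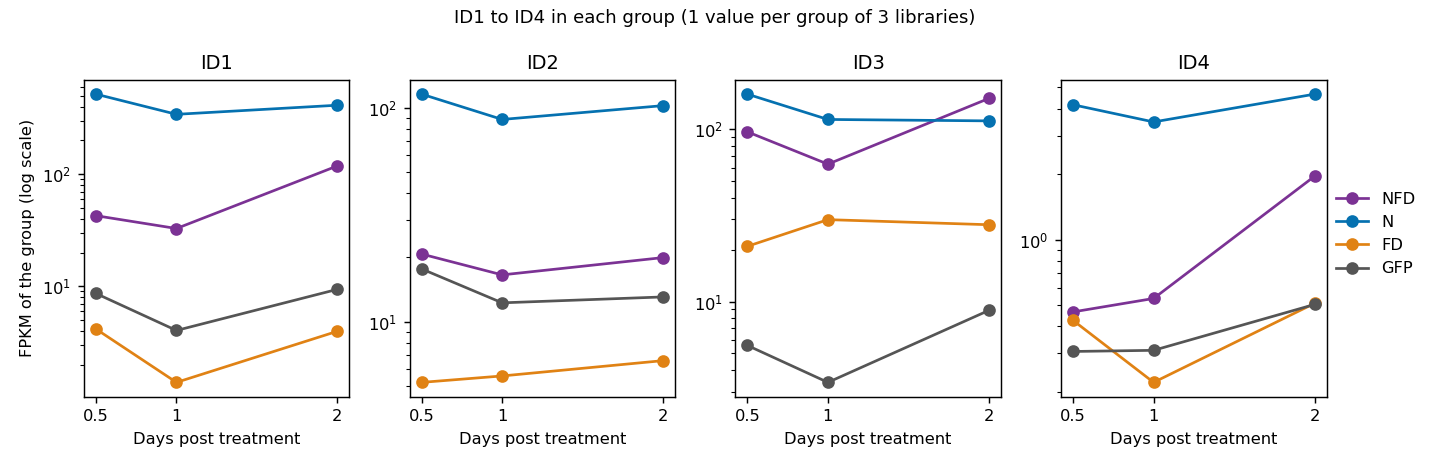
FPKM of ID1, ID2, ID3 and ID4 (one panel each, log axis with its own range) against days post treatment in NFD, N, FD and GFP cells, each point 1 deposited value for a group of 3 libraries. N cells lie highest for ID1, ID2 and ID4 at each time; for ID3 the NFD value passes the N value at 2 DPT (151.4 against 112.1 FPKM), and FD cells lie below GFP cells for ID1 and ID2 but above them for ID3.

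The make-up of the ID pool also differed between conditions. The 4 transcripts summed to 160.6, 112.7 and 291.8 FPKM in NFD cells, 797.3, 547.6 and 631.0 FPKM in N cells, 30.7, 37.1 and 39.0 FPKM in FD cells, and 32.1, 20.0 and 31.8 FPKM in GFP cells. ID1 made up 64.8%, 62.4% and 65.3% of the sum in N cells. ID3 led instead in NFD cells, with 60.3%, 55.8% and 51.9%, and in FD cells, with 68.1%, 80.6% and 71.6%, whereas ID2 led in GFP cells with 54.9%, 61.3% and 41.0%. In bulk RNA such values cannot tell fewer cells with a transcript from less of it per cell.

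With both molecules added to NEUROG2, ID1 and ID3 still rose above GFP cells at every time, and ID2 and ID4 came close to them at 0.5 DPT. ID1 had 42.6, 32.7 and 118.5 FPKM in NFD cells, levels well above GFP cells and far under N cells. The authors' deposited log2 fold changes of NFD over GFP were 2.30, 3.02 and 3.66 (q = 0.000151 each). ID3 had 96.8, 62.8 and 151.4 FPKM in NFD cells, with deposited log2 fold changes by the authors of 4.12, 4.21 and 4.09 (q = 0.000151 each).

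ID2 had 20.7, 16.6 and 20.0 FPKM in NFD cells, a level between those of N and GFP cells and nearer to GFP cells. Its log2 fold change over GFP in the authors' deposited tables was 0.23 at 0.5 DPT, which did not pass (q = 0.101), and it rose by 0.43 at 1 DPT (q = 0.00214) and by 0.61 at 2 DPT (q = 0.000151). ID4 had 0.465, 0.536 and 1.95 FPKM in NFD cells. The authors did not test it at 0.5 DPT, where the deposited log2 fold change is 0.60, and it rose by 0.79 at 1 DPT (q = 0.0255) and by 1.96 at 2 DPT (q = 0.000151) in their deposited tables, or by 0.23 and 0.97 for log2(FPKM + 1). So 2 of 3, 4 of 4 and 4 of 4 tested ID genes rose in NFD cells, where 32.1%, 32.6% and 34.1% of all genes tested were called higher and 63.4%, 65.8% and 66.1% in either direction. Their median was 2.30, 1.91 and 2.81, against 0.02, 0.00 and 0.04 over all tested genes.

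**Figure D2:**
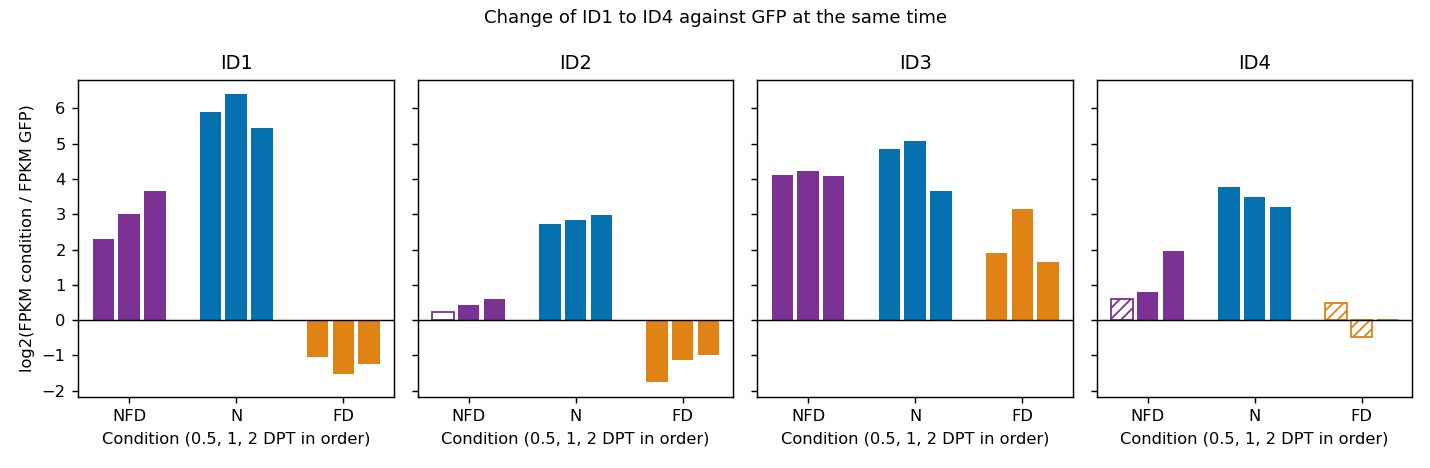
Log2 ratio of the FPKM in NFD, N or FD cells to the FPKM in GFP cells of the same time for ID1 to ID4, with 3 bars per condition for 0.5, 1 and 2 DPT from left to right. Filled bars passed the authors' test (q at or under 0.05), open bars did not and hatched bars were not tested; N bars are all positive, FD bars are negative for ID1 and ID2 and positive for ID3, and the bar of ID4 in FD cells at 2 DPT (0.02) is too short to see.

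What the molecules added to NEUROG2 was asked by setting NFD against N, a pair that no deposited table holds. The NEUROG2 level of NFD cells cannot be read, so a difference in it cannot be told apart from an effect of the molecules. Forskolin and dorsomorphin were always given together, so their parts cannot be told apart either. The FPKM of NFD cells was 8.24%, 9.59% and 28.8% of that of N cells for ID1, and 17.9%, 18.8% and 19.5% for ID2. For ID4 it was 11.2%, 15.5% and 42.0%, and for ID3 60.4%, 55.0% and 135%. ID1, ID2 and ID4 were thus listed lower in NFD cells at all 3 times, and ID3 lower at 0.5 and 1 DPT and higher at 2 DPT.

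An approximate two-sided z-test of the difference between the log2 fold changes was run over all genes tested in both tables, with standard errors read from the authors' p-values and Benjamini-Hochberg adjustment. ID2 was lower in NFD than in N cells at each time, with -2.48, -2.41 and -2.36 on the log2 scale (adjusted p = 0.00581, 0.00819 and 0.0139, approximate z-test on the authors' errors). ID4 was lower at 1 DPT, with -2.69 (-1.54 for log2(FPKM + 1); adjusted p = 0.0245), but its difference of -1.25 at 2 DPT did not pass (adjusted p = 0.367, with the authors' errors), and at 0.5 DPT it had no test. With this test 6.89%, 9.03% and 8.99% of all genes compared were lower in NFD cells and 12.4%, 18.4% and 18.6% differed in either direction, beside 1 of 3, 2 of 4 and 1 of 4 ID genes lower.

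For ID1 the outcome turned on the standard error. At the smallest p-value the tables hold, 5e-05, the standard error can only be bounded, at the log2 fold change divided by 4.06, so a large fold change gets a large error. With that bound the ID1 differences of -3.60, -3.38 and -1.80 did not pass (adjusted p = 0.109, 0.165 and 0.478, approximate z-test on the authors' errors), and 3 of 13202 and 14 of 13385 genes had lower differences at 0.5 and 1 DPT; at 2 DPT 383 of 13481 did. With the bound capped at the errors of other genes of like FPKM, an alternative chosen after seeing the data, the standard errors of these differences were 0.318, 0.587 and 0.460 and the adjusted p-values by the approximate z-test 5.87e-26, 1.51e-06 and 0.00133. Under the cap, 7.94%, 10.1% and 10.2% of all genes compared were lower, 14.2%, 20.5% and 20.7% differed, and 2 of 3, 3 of 4 and 2 of 4 ID genes were lower. ID3, with differences of -0.73, -0.86 and 0.43, did not pass with either error drawn from the authors' tables (adjusted p = 0.833, 0.771 and 0.882 with the bound, and 0.471, 0.381 and 0.577 with the cap). Its intervals under the cap, from -1.93 to 0.48, from -2.17 to 0.44 and from -0.51 to 1.37, leave room for a change in either direction.

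**Figure D3:**
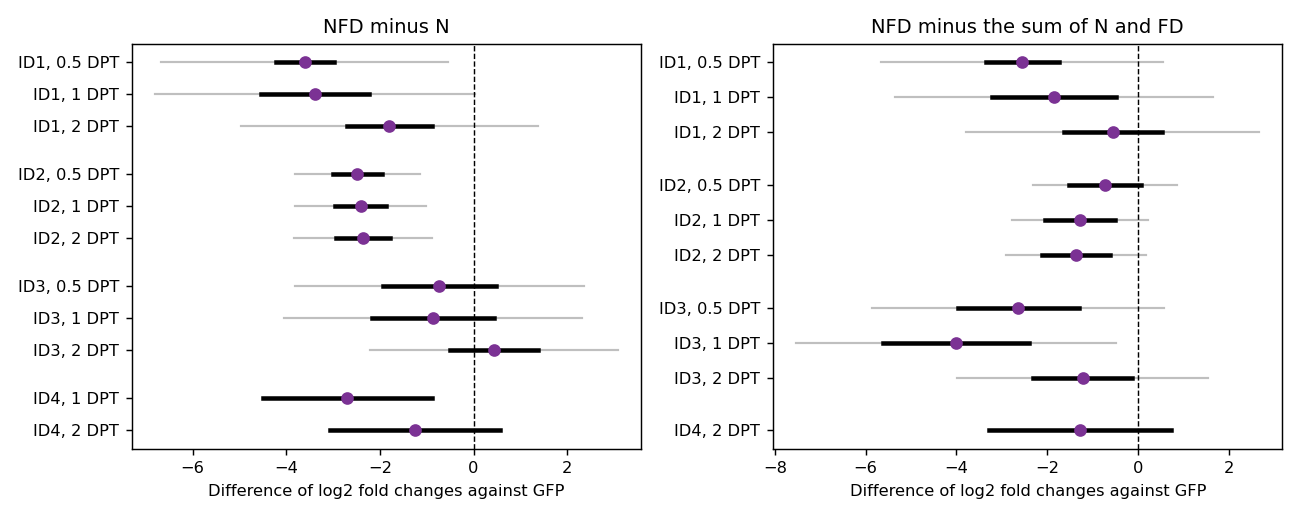
Differences of log2 fold changes against GFP for NFD minus N (left) and NFD minus the sum of N and FD (right), by ID gene and time, with 0 as the dashed line. Points are the differences, black lines 95% intervals with the capped standard error and grey lines 95% intervals with the upper bound. On the left, the ID2 points lie near -2.4 at each time with both intervals under 0, and both intervals of ID3 cross 0. On the right, the capped ID3 intervals lie under 0 at each time, though at 2 DPT the adjusted test did not pass.

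Fibroblast markers moved alongside. The 10 genes of the list summed to 4696, 2891 and 1535 FPKM in NFD cells and to 6618, 6685 and 6771 FPKM in N cells, against 8996, 10098 and 11122 FPKM in GFP cells. In NFD cells 8, 9 and 10 of the 10 were called lower than in GFP cells and in N cells 8, 8 and 7, where 31.3%, 33.2% and 32.0% of all tested genes were lower in NFD cells and 24.3%, 29.3% and 30.0% in N cells. COL3A1 and THY1 were higher in both at 0.5 DPT, and COL3A1 in N cells also at 1 and 2 DPT. Of all tested genes 32.1%, 32.6% and 34.1% were higher in NFD cells and 26.2%, 25.4% and 27.1% in N cells. In FD cells the sum was 6664, 6867 and 6488 FPKM, with 6, 7 and 8 of the 10 lower and 0, 1 and 1 higher. There 18.8%, 22.3% and 21.6% of all tested genes were lower and 17.8%, 16.0% and 16.9% higher. The median log2 fold change of the 10 was -0.97, -1.55 and -2.63 in NFD cells and -0.61, -0.79 and -0.81 in N cells. Other markers also moved in NFD cells, as given above. The part of these changes in the ID values was not tested.

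In FD cells, which had the molecules without NEUROG2, the family split. ID1 fell to 4.16, 1.39 and 3.97 FPKM in FD cells, levels of 48.2%, 34.4% and 42.3% of those in GFP cells, and ID2 fell to 5.21, 5.58 and 6.58 FPKM, or 29.5%, 45.5% and 50.4%. ID3 rose to 20.9, 29.9 and 27.9 FPKM, which was 3.77, 8.82 and 3.15 times the level in GFP cells. All 9 of these calls carried q = 0.000151 in the authors' deposited tables. The standard errors their p-values imply were at most 0.379 for ID1, 0.434 for ID2 and 0.775 for ID3 on the log2 scale. ID4 had 0.425, 0.221 and 0.509 FPKM in FD cells; it was not tested at 0.5 and 1 DPT, and the deposited log2 fold change of 0.02 at 2 DPT did not pass the authors' test (q = 0.977). Of all genes tested in FD cells, 17.8%, 16.0% and 16.9% were called higher and 18.8%, 22.3% and 21.6% lower (36.6%, 38.3% and 38.5% in all), beside 1 ID gene higher and 2 lower of 3, 3 and 4 tested.

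ID3 thus moved in the direction opposite to ID1 and ID2, and the sum of the family does not show this. The ID pool of FD cells was 30.7, 37.1 and 39.0 FPKM, close to the 32.1 FPKM of GFP cells at 0.5 DPT and above their 20.0 and 31.8 FPKM at 1 and 2 DPT.

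Whether the molecules did the same with and without NEUROG2 was asked by subtracting the N and FD log2 fold changes from that of NFD. GFP cells do not cancel out of this value, so an effect of their medium cannot be told apart from one of the combination. Nor can a difference in the NEUROG2 level of NFD cells, which cannot be read. For ID1 this left -2.55, -1.84 and -0.56, for ID2 -0.72, -1.28 and -1.37, and for ID3 -2.64, -4.00 and -1.22; for ID4 it could be had only at 2 DPT, with -1.27. All are below 0, but none passed the approximate two-sided z-test with the authors' errors at their bound (smallest adjusted p = 0.121, for ID3 at 1 DPT), where 3.31%, 13.8% and 16.1% of all genes passed. With the authors' errors capped, where 4.07%, 15.5% and 17.9% passed, 5 of the 10 did: ID1 (adjusted p = 3.56e-07) and ID3 (adjusted p = 0.00558) at 0.5 DPT, ID2 (adjusted p = 0.0128) and ID3 (adjusted p = 5.17e-05) at 1 DPT, and ID2 (adjusted p = 0.00398) at 2 DPT. For ID3 both N and FD cells were well above GFP cells, yet NFD cells did not exceed N cells at 0.5 and 1 DPT.

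Over time, the ID1 level of NFD cells was 42.6, 32.7 and 118.5 FPKM, so 2.78 times as high at 2 DPT as at 0.5 DPT, and that of ID4 was 4.20 times as high. In N cells the same ratios were 0.797 for ID1 and 1.12 for ID4, and in GFP cells 1.09 and 1.64. The ID4 ratio in NFD cells starts from 0.465 FPKM, where the authors did not test the gene, so this change had no test. At 1 DPT, ID1 and ID3 were at their lowest of the 3 times in NFD and GFP cells, and ID1 also in N and FD cells. The change of the log2 fold change against GFP between 0.5 and 2 DPT was 1.35 for ID1 in NFD cells, which did not pass with the bounded error (adjusted p = 0.396, approximate z-test on the authors' errors) and did with the cap (adjusted p = 0.00774). In NFD cells 22.6% of all genes changed with the bound and 24.4% with the cap; the shares were 12.5% and 13.8% in N cells and 10.9% and 11.8% in FD cells. None of the other 9 ID changes over time that could be tested passed with either error.

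Over the 12 groups, the levels of ID1 and ID2 (Pearson r = 0.94 of log2(FPKM + 1)), ID1 and ID4 (0.93) and ID2 and ID4 (0.91) went together, and ID3 followed them less closely, with r of 0.79 to ID1, 0.72 to ID4 and 0.60 to ID2. These are descriptions over 12 points, 3 times of each of 4 conditions. Of 10333 other genes tested in all 9 tables with at least 5 FPKM in the highest group, those most like ID1 were FZD8, a Frizzled receptor for WNT proteins (r = 0.98), TTC31, CITED4, a transcriptional coactivator (0.97), RAB4A and MRE11A. FZD8 had 26.4 and 26.6 FPKM in N cells and 5.61 and 9.64 FPKM in NFD cells at 0.5 and 2 DPT, against 0.836 and 1.15 FPKM in GFP cells. A high r does not mean a change of like size. At the same times CITED4 had 53.6 and 50.5 FPKM in N cells, against 1.26 and 2.66 FPKM in GFP cells. TTC31 had only 8.72 and 8.28 FPKM in N cells, against 6.53 and 6.34 FPKM in GFP cells. For ID2 they included GPD1L (0.97), MAMDC2, CSRP2 and TTC31. For ID3 they were GLIS1, a zinc finger transcription factor (0.97), ANKS1A, LUC7L2, LCORL and TANC1. For ID4 they were TMEM134 (0.94), LOC100294145, KCTD12, FZD8 and ID1.

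BMP ligands, upstream of the ID genes, were called in both directions. Of 12 ligand genes, 6, 7 and 7 were tested in NFD cells with 2 higher and 2 lower at each time; 5, 5 and 6 were tested in N cells, of which 2, 1 and 1 were higher and 2, 3 and 3 lower. Of all tested genes, 63.4%, 65.8% and 66.1% were called in NFD cells and 50.5%, 54.7% and 57.1% in N cells. BMP4, the leading ligand transcript of NFD, N and FD cells, had 40.8, 62.8 and 81.1 FPKM in NFD cells, 66.1, 61.1 and 56.9 FPKM in N cells and 5.27, 22.6 and 38.1 FPKM in FD cells, against 8.02, 19.9 and 59.4 FPKM in GFP cells. In GFP cells GDF5 was listed above BMP4 at 0.5 and 1 DPT, with 18.0 and 22.2 FPKM. BMP4 rose in NFD cells by 2.35, 1.66 and 0.45 in the authors' deposited tables. Its deposited log2 fold changes in N cells were 3.04, 1.62 and -0.06 by the authors' test, the last not called. GDF5, a BMP family ligand, fell in all 9 of the authors' deposited tables, with -5.24, -6.35 and -5.95 in NFD cells, -4.42, -5.11 and -6.17 in N cells and -2.56, -1.61 and -2.52 in FD cells.

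Among 11 receptor and co-receptor genes, 9, 10 and 10 were tested in N cells, with 4, 5 and 4 higher and 2, 2 and 3 lower; in NFD cells 1, 2 and 2 were higher and 4, 4 and 6 lower of 9, 10 and 10. Over all tested genes 26.2%, 25.4% and 27.1% were higher in N cells and 31.3%, 33.2% and 32.0% lower in NFD cells. BMPR1A, a type I receptor, rose in N cells by 0.75, 0.72 and 0.52, and BMPR2, the type II receptor, by 0.44, 0.31 and 0.45, as the authors' deposited tables give it. BMPR1A was lower in NFD than in N cells at each time, with -0.78, -0.87 and -1.11 (adjusted p = 0.00659, 0.000861 and 2.80e-06, approximate z-test on the authors' errors). ACVRL1, a type I receptor for BMP9 and BMP10 best known in endothelium, fell in NFD cells with -2.20, -3.21 and -4.21 and in N cells with -1.56, -2.30 and -2.91, and it rose in FD cells by 0.38, 0.39 and 0.28, all as deposited by the authors. Medians over the tested receptor genes were -0.03, -0.17 and -0.46 in NFD cells and 0.26, 0.11 and 0.12 in N cells.

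Of the 4 SMADs that carry the BMP signal, 4, 2 and 3 were higher in N cells and 0, 0 and 1 lower, and in NFD cells 3, 2 and 0 were higher and 1, 1 and 2 lower. All tested genes were called in either direction at 50.5%, 54.7% and 57.1% in N cells and 63.4%, 65.8% and 66.1% in NFD cells. SMAD9 set N and NFD cells apart. It had 2.38, 1.43 and 1.09 FPKM in NFD cells and 10.2, 10.7 and 11.5 FPKM in N cells, against 4.72, 5.39 and 6.56 FPKM in GFP cells. The NFD values lie under GFP cells and the N values above them at each time. NFD minus N was -2.10, -2.90 and -3.40 (adjusted p = 5.50e-06, 5.35e-06 and 2.15e-05, approximate z-test on the authors' errors).

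SMAD6 and SMAD7, inhibitory SMADs and, like the ID genes, BMP targets, had the order of ID2 in part. SMAD6 had 1.60, 1.60 and 4.56 FPKM in NFD cells, 8.16, 8.98 and 8.20 FPKM in N cells and 2.34, 3.08 and 4.57 FPKM in FD cells, against 4.70, 5.27 and 7.48 FPKM in GFP cells. SMAD7 had 2.37, 2.63 and 4.90 FPKM in NFD cells, 6.89, 6.98 and 8.21 FPKM in N cells and 2.22, 2.18 and 3.10 FPKM in FD cells, against 3.77, 4.21 and 5.57 FPKM in GFP cells. Both were listed highest in N cells, and unlike ID2 both were listed lower in NFD cells than in GFP cells. NFD minus N was -2.35, -2.49 and -0.85 for SMAD6 (adjusted p = 1.28e-05, 8.43e-06 and 0.0102, approximate z-test on the authors' errors) and -1.54, -1.41 and -0.74 for SMAD7 (adjusted p = 5.50e-06, 2.95e-06 and 0.00247). Of the 7 intracellular BMP inhibitors listed, 1 was higher in NFD cells at each time and 5, 6 and 5 lower; in N cells 3, 3 and 2 were higher and 3 lower at each time. The share of all tested genes called lower was 31.3%, 33.2% and 32.0% in NFD cells and 24.3%, 29.3% and 30.0% in N cells. Their median log2 fold change was -0.76, -0.83 and -0.67 in NFD cells and -0.21, -0.14 and -0.25 in N cells. SMURF2, a ubiquitin ligase that acts on SMADs and their receptors, fell in each of the 9 deposited comparisons of the authors, with -2.26, -2.62 and -2.67 in NFD cells, -1.62, -1.81 and -1.64 in N cells and -1.39, -1.67 and -1.84 in FD cells.

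Secreted BMP antagonists moved in both directions in N cells, with 5, 5 and 3 higher and 5, 6 and 8 lower of 11, 12 and 12 tested. All tested genes also went both ways there, with 26.2%, 25.4% and 27.1% higher and 24.3%, 29.3% and 30.0% lower. GREM1, which binds and blocks BMPs, had 8.28, 3.71 and 2.97 FPKM in NFD cells and 13.3, 7.65 and 4.58 FPKM in N cells, against 344, 269 and 151 FPKM in GFP cells. It was not called in FD cells, with 374.8, 229.5 and 176.9 FPKM. CHRD, which encodes the BMP antagonist chordin, had 10.9, 14.3 and 19.7 FPKM in NFD cells and 5.39, 5.72 and 5.24 FPKM in N cells, against 0.0697, 0.0567 and 0.121 FPKM in GFP cells. GREM1 thus fell and CHRD rose in N and NFD cells at each time. In NFD cells 5, 5 and 3 antagonists were higher and 6, 6 and 7 lower of 11, 12 and 12 tested. Of all tested genes 32.1%, 32.6% and 34.1% were higher there and 31.3%, 33.2% and 32.0% lower.

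Other transcription factors known as BMP targets moved in several ways. Of 7 listed and 6 tested, 3 were higher in NFD and in N cells at each time: ATOH8, MSX1 and HEY1. Of all tested genes 32.1%, 32.6% and 34.1% were higher in NFD cells and 26.2%, 25.4% and 27.1% in N cells. ATOH8, itself a bHLH factor, had 20.8, 23.2 and 31.1 FPKM in NFD cells and 24.7, 21.0 and 25.4 FPKM in N cells, against 1.04, 1.19 and 1.78 FPKM in GFP cells. Unlike ID2, its NFD and N levels lay close together, and NFD minus N (-0.25, 0.14 and 0.29) did not pass (adjusted p = 0.954, 0.967 and 0.929, approximate z-test on the authors' errors). MSX2, a homeobox factor, had 17.5, 28.5 and 35.0 FPKM in FD cells, against 7.05, 8.47 and 11.1 FPKM in GFP cells, and rose there together with TBX3 and HEY1, as ID3 did.

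**Figure D4:**
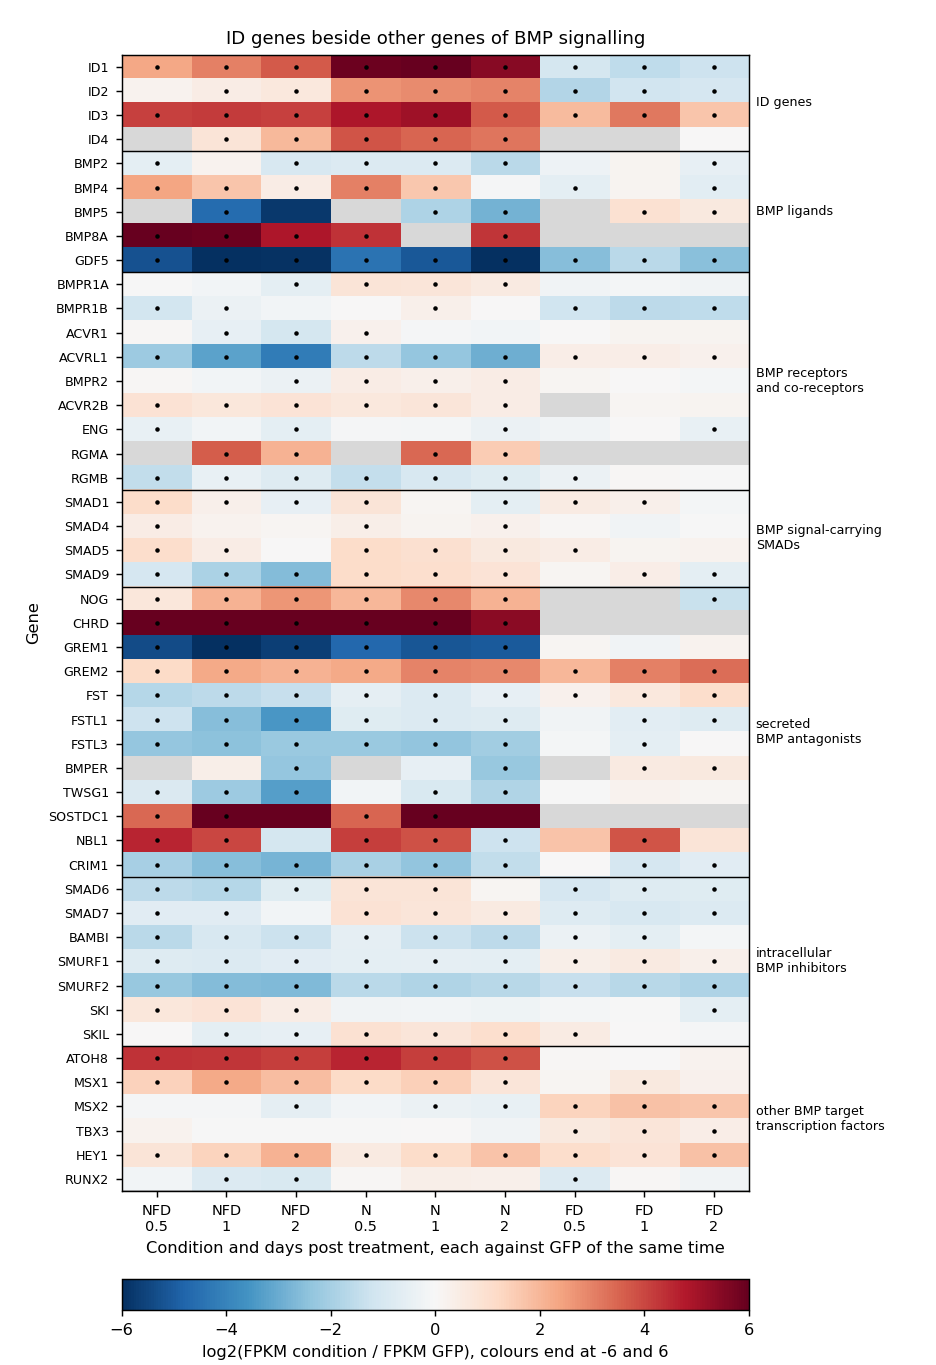
Log2 ratio of the FPKM in NFD, N and FD cells to that in GFP cells of the same time for the ID genes and for genes of 6 BMP lists that the authors' test called at least once; colours end at -6 and 6, black dots mark calls, and grey cells were not tested or have no finite ratio. The ID rows are red in N cells, SMAD6, SMAD7 and SMAD9 turn from red in N cells to blue in NFD cells in most cells of the plot, and ATOH8 is red in both.

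On the side of the targets of ID proteins, the E proteins TCF3, TCF4 and TCF12 were all well expressed. TCF12 had 68.6, 75.7 and 48.9 FPKM in NFD cells, 58.7, 56.2 and 47.8 FPKM in N cells and 111.6, 143.5 and 83.3 FPKM in FD cells, against 76.9, 103.5 and 76.1 FPKM in GFP cells. It fell in N cells at each time, with -0.39, -0.88 and -0.67 in the authors' deposited tables. TCF4, which shares its locus with another gene of the tables, rose there by 1.97, 1.67 and 1.33. Summed over the 3 genes, E protein transcripts came to 132.7, 126.5 and 109.8 FPKM in NFD cells, 132.6, 139.5 and 131.7 FPKM in N cells and 154.0, 196.6 and 135.9 FPKM in FD cells, against 108.4, 139.2 and 124.2 FPKM in GFP cells. Set beside these, the ID sum was larger than the E protein sum in N cells at all 3 times, and in NFD cells at 0.5 and 2 DPT; in FD and GFP cells it was smaller at each time. These are transcript levels per length and say nothing of protein.

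Of the 13 proneural and neuronal bHLH genes, 1, 7 and 7 were tested in NFD cells, NEUROG2 not among them, and 1, 6 and 2 were higher. In N cells 1, 4 and 6 were tested, NEUROG2 among them. It was the only one tested at 0.5 DPT and the only one higher at 2 DPT, and NEUROD1, NEUROD2 and NHLH2 were also called at 1 DPT. Of the genes tested, 3 in N cells at 1 DPT, and 6 and 2 in NFD cells at 1 and 2 DPT, had no finite log2 fold change. The counts do not follow the levels. In NFD cells the 13 genes summed to 2.27, 6.46 and 46.4 FPKM, with NEUROG2 listed at 0. Over all tested genes 32.1%, 32.6% and 34.1% were higher in NFD cells and 26.2%, 25.4% and 27.1% in N cells. NEUROD4, a factor downstream of neurogenins, was listed at 0.174, 1.58 and 19.9 FPKM in NFD cells and 0.0272, 0.201 and 2.41 FPKM in N cells, against 0.00403, 0 and 0.00449 FPKM in GFP cells. NEUROD1 was listed at 11.7 FPKM in NFD cells and 2.04 FPKM in N cells at 2 DPT. Both were called higher in NFD cells at 1 DPT, and NEUROD1 also in N cells, against GFP cells listed at 0, so that no fold can be given. Neither was called at 2 DPT. Of 11 bHLH repressor genes, 7, 7 and 8 were tested in NFD cells, with 5, 5 and 6 higher and 1 lower at each time. In N cells 6, 5 and 6 were higher and 1, 1 and 0 lower of 7. In FD cells 5, 4 and 5 were higher and 1, 0 and 1 lower of 6, where 17.8%, 16.0% and 16.9% of all tested genes were higher. HES1, HES4, HES6 and HEY1 rose in all 9 comparisons, whereas BHLHE40 was called lower in NFD cells at each time. HES6, which counters HES1 and favours neurogenesis, had 85.1, 103.6 and 389.1 FPKM in NFD cells, 105.8, 78.0 and 88.2 FPKM in N cells and 4.89, 9.54 and 14.6 FPKM in FD cells, against 3.23, 3.30 and 6.29 FPKM in GFP cells. Of 14 mesodermal and myogenic bHLH genes, 13 were found and 5, 6 and 7 tested in NFD cells, with 1, 1 and 2 higher and 4, 4 and 5 lower; in N cells 2, 1 and 0 were higher and 3, 2 and 3 lower of 5. All tested genes were called lower at 31.3%, 33.2% and 32.0% in NFD cells and 24.3%, 29.3% and 30.0% in N cells. TWIST1, a bHLH factor of mesenchyme, fell in every deposited table of the authors, with -2.06, -2.17 and -2.55 in NFD cells, -0.41, -0.56 and -1.50 in N cells and -1.39, -1.17 and -1.19 in FD cells.

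Of 5 other regulators of ID genes or proteins, EGR1, an immediate early factor, showed the order N above GFP above FD that ID1 and ID2 showed. Unlike them, EGR1 was listed lower in NFD cells than in GFP cells at each time. It had 0.526, 1.33 and 3.58 FPKM in NFD cells, 3.74, 6.64 and 7.80 FPKM in N cells and 0.112, 0.219 and 0.957 FPKM in FD cells, against 0.686, 2.92 and 5.15 FPKM in GFP cells. NFD minus N was -2.83, -2.32 and -1.12 (adjusted p = 0.000553, 2.95e-06 and 3.29e-06, approximate z-test on the authors' errors). ATF3, a stress factor that with SMADs can repress ID1, had the opposite order, with 7.86, 7.84 and 8.87 FPKM in NFD cells, 1.97, 2.94 and 3.51 FPKM in N cells and 8.49, 8.15 and 12.3 FPKM in FD cells, against 3.77, 5.44 and 6.90 FPKM in GFP cells. NFD minus N was 1.99, 1.42 and 1.34 for ATF3 (adjusted p = 5.50e-06, 5.52e-06 and 4.63e-05, approximate z-test on the authors' errors). MYC rose in NFD cells by 1.07, 0.72 and 0.62 and in N cells by 1.09, 0.77 and 0.62, and fell in FD cells with -0.58, -1.23 and -1.47, in the authors' deposited tables. USP1, a deubiquitinase that stabilises ID proteins, was not called in NFD or FD cells and was called higher in N cells at 1 and 2 DPT.

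CDK inhibitors, cell cycle brakes among which are E protein targets, were mostly lower in N cells, with 5, 4 and 5 lower of 5, 4 and 5 tested and none higher, at shares of all tested genes called lower of 24.3%, 29.3% and 30.0%. In NFD cells 1 was higher at each time and 3, 4 and 3 were lower, where 31.3%, 33.2% and 32.0% of all tested genes were called lower. CDKN1C was the one that rose there, with 30.3, 27.4 and 25.2 FPKM in NFD cells and 7.25, 4.76 and 3.92 FPKM in N cells, against 13.0, 11.2 and 13.4 FPKM in GFP cells. NFD minus N was 2.06, 2.52 and 2.68 for CDKN1C (adjusted p = 6.18e-06, 2.95e-06 and 4.27e-06, approximate z-test on the authors' errors). CDKN1B fell in NFD cells with -0.96, -1.22 and -1.38 and in N cells with -0.69, -0.54 and -0.83 in the authors' deposited tables.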

How the data were processed

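Stranded total RNA libraries from 36 samples were sequenced by the submitters; one label names genomic DNA as the molecule, whereas the protocol is for RNA. Per the submitters' processing notes, the tools were TopHat 1.4.1, Cufflinks 2.1.0 and Cuffdiff 2.1.0, with GRCh37 (hg19). Per the file headers, the authors deposited 9 tables (NFD, N or FD against GFP at each time) with 1 FPKM per group of 3 libraries, a log2 fold change, a p-value and a q-value for each locus. Read counts were not analysed here, so depth and the precision it gives are unknown. Loci the authors did not test were left out of every count, and 26 names per table that a spreadsheet turned into dates were not used.

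A gene was called at a deposited q-value at or under 0.05. Differences between comparisons were tested over all genes tested in each, by an approximate two-sided z-test with Benjamini-Hochberg adjustment; standard errors were the log2 fold change over the normal quantile of the p-value, an upper bound at the smallest p-value, or that bound capped at the 95th percentile of the errors of the 200 genes nearest in FPKM. With 1 value per group no exact test over libraries can be made, and the shared GFP group makes these errors approximate. The test of NFD minus N was also run on simulated data. These took their errors from the cap and had no shared GFP group, so they cannot judge the cap or that sharing. The 12 lists around the ID genes hold 105 genes, of which 104 were found by symbol. The members, lists and tests were chosen with earlier results of these data known. Named genes are the ID genes, list members whose calls kept 1 direction over the 3 times (with 1 FPKM or more in the group that is higher), other list members given as values, NEUROG2, and the 5 genes most like each ID gene by Pearson r of log2(FPKM + 1), of which 1 is not reported here. Promoter sequences come from RefSeq (all 4 genes matched by symbol). Alternatives were other thresholds, pseudocounts of 1 and 0.1, centring, a filter at 1 FPKM and the direct NFD to N ratio. Python 3.11.15, numpy 2.4.6, pandas 2.3.3, scipy 1.17.1 and matplotlib 3.10.9 were used.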

Additional observations from a re-analysis of the deposited data

Results flagged for a closer look

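For 5 values, NFD cells differed from the sum of the N and FD log2 fold changes by a test of that difference, with the capped standard error only. These were -2.55 for ID1 and -2.64 for ID3 at 0.5 DPT, -1.28 for ID2 and -4.00 for ID3 at 1 DPT, and -1.37 for ID2 at 2 DPT. For ID1 in NFD cells, the log2 fold change against GFP differed between 2 and 0.5 DPT by 1.35, again with the capped error only. None of these passed with the upper bound of the standard error. For the 5 departures, the medium of GFP cells and the NEUROG2 level of NFD cells cannot be told apart from the combination.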

How the results depend on the processing

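Of the 33 ID tests against GFP, 31 were called, where 36.6% to 66.1% of all tested genes were called in these comparisons. The ID count was 30 at a q-value at or under 0.01, where ID4 in NFD cells at 1 DPT was lost. None of the 132 log2 fold changes under other pseudocounts, centring or the median GFP value changed direction. Adding 1 FPKM moved ID4 most, to 1.98, 1.77 and 1.91 in N cells, 0.23 and 0.97 in NFD cells at 1 and 2 DPT, and -1.54 for NFD minus N at 1 DPT. Capping the standard error brought past the threshold the NFD minus N differences of ID1 (-3.60, -3.38 and -1.80), the departures from the sum of N and FD of ID1 (-2.55) and ID3 (-2.64) at 0.5 DPT, ID2 (-1.28) and ID3 (-4.00) at 1 DPT and ID2 (-1.37) at 2 DPT, and the ID1 change over time in NFD cells (1.35); this follows from the smaller errors alone. The ID3 change over time in NFD cells, -0.032, turned to 0.048 with a pseudocount of 1 and to 0.0099 after centring; the cause was not tested. With Spearman's rho in place of Pearson's r, the 5 genes most like each ID gene shared 3, 0, 0 and 0 genes with the first 5 for ID1, ID2, ID3 and ID4. No paired analysis was possible because the files hold 1 value per group, and leaving out single libraries was not run for the same reason. Genes near 0 FPKM, such as ID4 in FD cells, were mostly not tested.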
